A study of Mus musculus with 4 samples.

Results

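The genes described here make, move and break down acetylcholine or supply its precursors. They are 10 genes, named by symbol, of 21822 gene units in the count tables, and all 10 had a unit and enough counts to be tested. By role, 4 act in synthesis and transport (Chat, Slc18a3, Slc5a7 and Slc10a4), 3 in breakdown (Ache, Bche and Prima1) and 3 in the general supply of choline and acetyl-CoA (Acly, Slc44a1 and Chka). The mouse embryonic stem cell line used, iMN-ESCs, is labelled as of C57BL/6 background; in it, doxycycline (Dox) turns on a fusion of the LIM-homeodomain factors Isl1 and Lhx3. RNA was sequenced from cell aggregates in 2 groups of 2 libraries, which the series' design text calls biological duplicates. Aggregates of both groups spent 2 days in stem cell medium with LIF and then 2 days in 0.5 µM all-trans retinoic acid (RA). The Dox group then had RA with 2 µg/mL Dox for another 2 to 3 days, and the no Dox group had RA alone for that time. All 4 libraries carry the transgene and no group had Dox without it, so the drug and the fusion cannot be told apart as sources of a difference. The labels do not name the promoter of the fusion or say whether the line is 1 clone.

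Acetylcholine is the transmitter by which spinal motor neurons drive muscle. Choline acetyltransferase joins choline to the acetyl group of acetyl-CoA in the nerve ending, a proton exchanger loads the product into synaptic vesicles, and after release an esterase splits it so that the choline can be taken up again. The acetyl-CoA and much of the choline come from pathways that every cell runs, for fatty acids and membrane phospholipids, while the enzyme, the vesicle transporter and the high-affinity choline carrier mark cholinergic neurons.

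The induced genes start at 3 separate loci, and the stretches just before their starts are shown here because these genes rose together. The 250 bases before each start are from RefSeq on GRCm38.p6, printed 5′ to 3′ on the gene's strand, and all 10 members matched an entry of that table. The first listed start of each gene was used, which for some members lies inside the gene's annotated span. The window of Prima1 falls wholly within that span and the window of Chka mostly so. Capitals mark each TAAT on either strand, the core letters that homeodomain proteins bind. Chat (chr14:32465910-32466159, minus strand) and Slc5a7 (chr17:54299035-54299284, minus strand) hold none, Slc18a3 (chr14:32464851-32465100, minus strand) holds 1, and Slc10a4 (chr5:73006654-73006903, plus strand) holds 2.
Chat: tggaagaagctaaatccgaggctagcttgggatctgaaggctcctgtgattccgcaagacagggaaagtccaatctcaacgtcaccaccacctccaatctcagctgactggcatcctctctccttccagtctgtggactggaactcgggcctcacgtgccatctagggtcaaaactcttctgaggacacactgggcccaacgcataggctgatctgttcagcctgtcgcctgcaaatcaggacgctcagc
Slc18a3: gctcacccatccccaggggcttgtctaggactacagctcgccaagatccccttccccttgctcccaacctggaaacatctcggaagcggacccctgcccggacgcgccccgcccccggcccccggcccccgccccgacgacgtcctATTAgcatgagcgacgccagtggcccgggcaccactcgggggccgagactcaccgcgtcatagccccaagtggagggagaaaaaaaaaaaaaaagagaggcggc
Slc5a7: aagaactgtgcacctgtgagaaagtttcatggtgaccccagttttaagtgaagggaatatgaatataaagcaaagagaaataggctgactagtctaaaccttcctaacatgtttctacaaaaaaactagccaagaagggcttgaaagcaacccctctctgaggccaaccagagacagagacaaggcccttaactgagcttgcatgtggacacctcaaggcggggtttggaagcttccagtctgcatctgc
Slc10a4: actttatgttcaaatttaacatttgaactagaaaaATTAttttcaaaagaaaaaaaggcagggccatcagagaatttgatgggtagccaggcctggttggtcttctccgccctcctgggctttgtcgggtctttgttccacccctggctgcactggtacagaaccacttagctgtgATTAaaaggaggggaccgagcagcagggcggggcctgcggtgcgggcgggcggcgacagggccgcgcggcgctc
Of 32851 mouse promoters cut to the same length, 54.9% hold a TAAT on either strand. Among the other 6 members only Bche holds one. The 6-letter TAATTA, which contains TAAT, occurs in 4.84% of all promoters and in none of the 10 members. A GC box (GGGCGG, either strand) occurs in 32.7% of all promoters and in 8 of the 10 members, with Chat and Slc5a7 as the exceptions. These counts describe letters in a short window and say nothing on binding.

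Part counts per library summed to between 24020832 and 53903936. Lhx3 reached 125 and 108 CPM (counts scaled to library size with TMM factors) in the Dox libraries, against 0.404 and 0.286 CPM in the no Dox libraries, and Isl1 reached 104 and 82.4 CPM with Dox, against 3.08 and 5.84 CPM without, so all 4 libraries followed their labels. Coverage along genes differed between libraries. The share of counts in parts past the middle, by part number, toward the 3′ end was taken over 5526 genes. These had at least 10 parts, a mean of at least 200 counts and a known strand. The median share was 64.1% and 69.4% in Dox replicates 1 and 2, and 62.7% and 71.6% in no Dox replicates 1 and 2. The higher value was thus that of replicate 2 in both groups. Of 10 pan-neuronal markers none was called. They summed to 1220 and 899 CPM with Dox, against 714 and 519 CPM without, but to 320 and 240 CPM with Dox, against 436 and 353 CPM without, once Nefl was left out. Of 6 neural progenitor markers none was called, with sums of 371 and 250 CPM with Dox and 588 and 475 CPM without. Of 6 mesenchyme markers 3 were called higher (Col1a1, Col3a1 and Prrx1), and of 6 glial markers 1 was (Aqp4). None of the endoderm, pluripotency, erythroid and skeletal muscle markers was called. The part of these cell types in the results below was not tested.

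The synthesis and transport genes rose with Dox and were close to absent without it. All 4 were higher with Dox in edgeR's quasi-likelihood test, with adjusted p between 0.000649 and 0.0016. Over all 14283 genes tested, 1.23% were called higher and 0.056% lower at an adjusted p under 0.05. By size of the log2 fold change, Slc10a4, Chat, Slc5a7 and Slc18a3 stood at ranks 6, 7, 8 and 19 of the 14283 genes. In bulk RNA, more cells of a type and more RNA per cell cannot be told apart.

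Chat encodes choline acetyltransferase, the enzyme that makes acetylcholine. It had 18.1 and 16.4 CPM in Dox replicates 1 and 2, against 0.0367 and 0.122 CPM in no Dox replicates 1 and 2. The libraries without Dox held 1 and 3 counts in all, so their level is close to the limit of detection, and the groups did not overlap. The fitted log2 fold change was 7.74 (SE 0.37, edgeR adjusted p = 0.000967). DESeq2 gave a larger SE of 0.76, and with so few counts without Dox the SE of 0.37 may be too small. Summed counts were 1572 with Dox against 4 without, a ratio of 221 after scaling to library size, with an exact 95% interval of 86.2 to 812 that covers counting error only. The change moved to 7.11 without no Dox replicate 1, to 8.76 without no Dox replicate 2 and to 6.73 with a gene's largest part taken as its count. It was called in each case.

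Slc18a3 encodes VAChT, the transporter that fills synaptic vesicles with acetylcholine. It stood at 25.7 and 25.5 CPM in the Dox libraries, against 0.624 and 0.490 CPM in the no Dox libraries. The groups did not overlap, and the libraries without Dox held 17 and 12 counts. Its log2 fold change of 5.51 (SE 0.22, edgeR adjusted p = 0.000649) was the lowest of the 4, and it ran from 5.35 to 5.71 over 12 alternatives.

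Slc5a7 encodes the high-affinity choline transporter that returns choline to the nerve ending. It had 18.5 and 28.7 CPM in Dox replicates 1 and 2, against 0.110 and 0.122 CPM in the no Dox libraries, where each held 3 counts. The log2 fold change was 7.63 (SE 0.41, edgeR adjusted p = 0.0016), and the scaled ratio of summed counts was 212 (exact 95% counting interval 97.2 to 578). The spread between the Dox libraries lay mostly in the last exon, a stretch of 3558 bases in the GRCm38 annotation that is largely not coding. That exon held 11.4 and 20.8 CPM in Dox replicates 1 and 2, while the other 8 exons together held 7.12 and 7.89 CPM. In an alternative added once the data had been seen, which drops the 3′-most part of genes with several, the log2 fold change was 8.36.

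Slc10a4 encodes a transporter-like protein of cholinergic and monoaminergic vesicles whose substrate is not settled. It had 45.5 and 38.8 CPM in the Dox libraries, against 0.110 and 0.286 CPM in the no Dox libraries, with no overlap. The log2 fold change was 7.74 (SE 0.32, edgeR adjusted p = 0.000749), with 3817 counts against 10 and a scaled ratio of 215 (exact 95% counting interval 117 to 448). It became 8.54 without no Dox replicate 2 and 8.47 with the largest part as the gene count, and it was called in both cases.

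**Figure D1:**
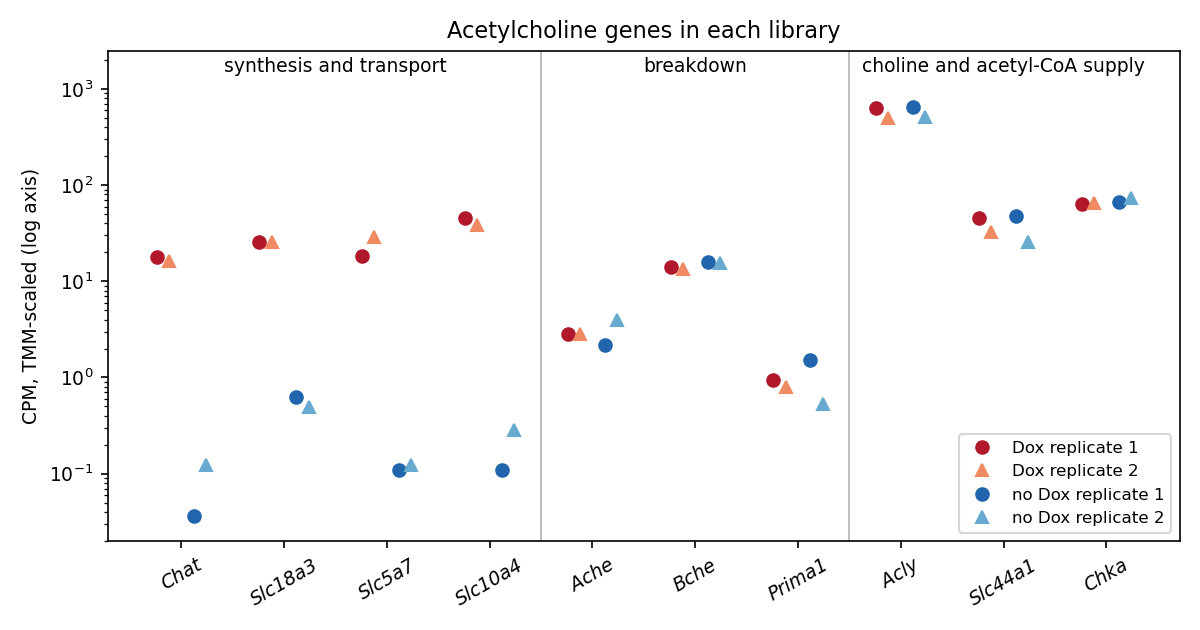
TMM-scaled CPM (log axis) of the 10 members in each library, with Dox libraries left of no Dox libraries for each gene. The 4 synthesis and transport genes lie between 16.4 and 45.5 CPM with Dox and at or below 0.624 CPM without, while the groups lie close together for the other 6.

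Levels of different genes were compared as CPM per kb of annotated exon. With Dox, Slc10a4 stood at 21.6 and 18.4 CPM per kb, Slc18a3 at 10.7 and 10.6, Chat at 6.32 and 5.75, and Slc5a7 at 3.58 and 5.54 CPM per kb. Each gene's 2 Dox libraries thus lay above those of the next gene, but the margin between Chat and Slc5a7 was smaller than the spread of Slc5a7. Without Dox, Slc18a3 led at 0.259 and 0.203 CPM per kb, followed by Slc10a4 at 0.0523 and 0.136 CPM per kb. Chat and Slc5a7 changed places between the no Dox libraries. Apart from Slc18a3, these levels rest on 1 to 7 counts a library, so no firm order follows.

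Chat and Slc18a3 form a nested pair and were read part by part. In the GRCm38 annotation Slc18a3 is a single exon on the same strand, 1107 to 3519 bases after the start of Chat, and so between Chat exon 1, which ends at 150 bases, and exon 2, which begins at 5044 bases. No Chat exon overlaps it, and the units of the pair named 1 transcript each. Slc18a3 lies within Chat's first intron on the same strand, so counts from unspliced Chat RNA there could not be told apart from its own. The Slc18a3 counts, and the shares and level ratios of the pair, carry this limit. All 16 Chat exons had counts in both Dox libraries, and all 16 lay above both no Dox libraries. In the libraries without Dox only 3 of the 16 had a count. Exons 4 to 15, which are wholly coding, summed to 7.93 and 6.68 CPM per kb with Dox, and exons 2 and 3 to 4.75 and 3.12 CPM per kb. Exon 1, which is not coding, stood at 0.532 and 0.243 CPM per kb with Dox, from 3 and 2 counts. It gave 5.45% and 3.85% of the counts of exons 1 to 3 (exact 95% intervals 1.14% to 15.1% and 0.469% to 13.2%). A low first exon was not particular to Chat. With Dox, Slc5a7 had 1.18 and 0.887 CPM per kb in exon 1, against 2.99 and 2.99 in exon 2. Acly had 32.2 and 17.4 against 112.5 and 69.6, and exon 1 was also below exon 2 in Bche and Slc44a1. In Slc10a4 the step was smaller, at 20.9 and 17.2 against 31.7 and 24.5. Chat exon 8 had 3.16 and 2.98 CPM per kb, below its neighbours exon 7 (7.54 and 6.17) and exon 9 (7.40 and 6.57) in both Dox libraries. Chat exons 7, 8 and 9 are close in length, at 181, 178 and 170 bases. The reason for the lower level of exon 8 was not tested. Between exons of unlike length, a read that spans exons may be counted in each, which raises short exons most.

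Slc18a3 took 58.7% and 60.8% of the counts of the pair in Dox replicates 1 and 2 (exact 95% intervals 56.3% to 61.1% and 58.8% to 62.9%). In no Dox replicates 1 and 2 it took 94.4% and 80.0% (72.7% to 99.9% and 51.9% to 95.7%). Both values without Dox were higher than both with Dox, although they rest on 18 and 15 counts and the interval of the second meets those of the Dox libraries. Per kb, Slc18a3 stood at 1.69 and 1.84 times the level of Chat in the Dox libraries.

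**Figure D2:**
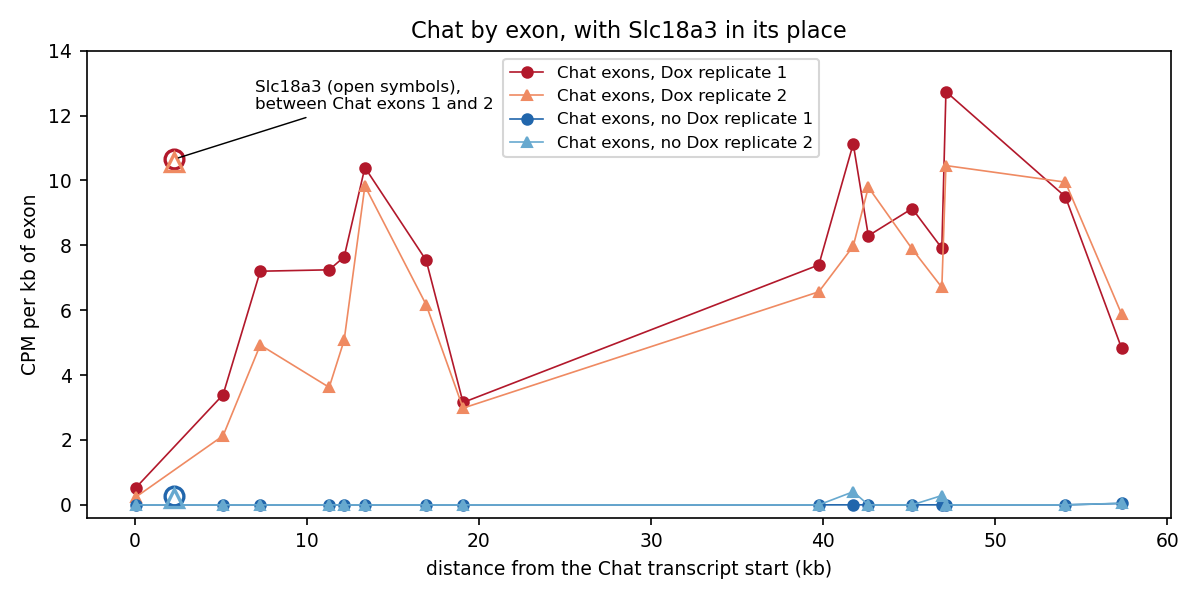
CPM per kb of each Chat exon (filled symbols, joined by lines) against distance from the Chat transcript start in kb, for the 4 libraries, with Slc18a3 as open symbols at its place between Chat exons 1 and 2. Dox libraries lie above no Dox libraries at every exon, and exon 1 at the left end is low with Dox at 0.532 and 0.243 CPM per kb.

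Of the 3 transporters of the synthesis and transport list, Slc10a4 and Slc5a7 were among the 5 genes whose pattern was most like that of Chat, and Slc18a3 was not. Likeness was the Euclidean distance of log2 CPM, centred on each gene's mean over the 4 libraries, among 10891 other genes that averaged 5 CPM or more. The closest were Slc10a4 (distance 0.403), Slc5a7 (0.806), Ecel1 (0.855), Cbln2 (1.17) and Lhx3 (1.48). Lhx3 is part of the fusion that Dox turns on, and counts from the fusion and from the gene itself were not separated. Slc18a3 came at rank 8 with a distance of 1.90. With 4 libraries this measure mostly reads the size of the step between the groups.

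The breakdown genes did not pass the test. Of Ache, Bche and Prima1, none was called higher or lower by edgeR, DESeq2 or limma-voom and none had an unadjusted p under 0.05 in edgeR. All 3 log2 fold changes were below 0, and their median was -0.19 beside -0.01 over all genes tested. Ache encodes acetylcholinesterase, which splits acetylcholine at the synapse. It had 2.84 and 2.86 CPM in the Dox libraries, against 2.20 and 3.92 CPM in the no Dox libraries, which lay on either side. Its log2 fold change of -0.10 (SE 0.33, edgeR adjusted p = 0.981) had a 95% interval of -0.91 to 0.71, within a 2-fold change in either direction. The annotated gene Gm42456 overlaps Ache on the other strand, and without a known strand setting the counts of the pair cannot be told apart. By exon, the last one, whose coding stretch is the tail of the synaptic form of the enzyme, had 0.535 and 0.659 CPM with Dox and 0.514 and 1.02 CPM without. Ache is also made by blood and muscle cells. The 7 erythroid and megakaryocyte markers found, of 8 listed, summed to 3.96 and 4.14 CPM with Dox, against 3.30 and 3.39 CPM without, with Hba-x at 0 in all libraries, and the 6 skeletal muscle markers to 2.19 and 2.27 CPM with Dox, against 1.18 and 1.10 CPM without. Their part in the Ache counts was not tested.

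Bche encodes butyrylcholinesterase, the less selective esterase of plasma, liver and glia. It stood at 14.3 and 13.3 CPM in the Dox libraries, against 15.9 and 15.6 CPM in the no Dox libraries. The groups did not overlap, as was so in this direction for 19.9% of all genes tested, and the log2 fold change was -0.19 (SE 0.15, edgeR adjusted p = 0.80, 95% interval -0.56 to 0.17). Between 65.1% and 78.0% of its counts lay in the last exon, which in the GRCm38 annotation is 4234 bases long with 122 coding bases. Per kb it exceeded Ache in each library, by 1.77 and 1.64 times with Dox and 2.55 and 1.40 times without.

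Prima1 encodes the proline-rich anchor that ties esterase tetramers to the membrane of neurons. It had 0.936 and 0.806 CPM with Dox, against 1.51 and 0.531 CPM without, on either side, from 13 to 44 counts a library. The 95% interval of its log2 fold change, -1.51 to 1.02 around -0.24 (SE 0.52, edgeR adjusted p = 0.959), was the widest of the members. Its 5′ parts had few or no counts in any library, and in no Dox replicate 2 all 13 counts lay in the last exon.

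The supply genes were expressed in both groups, and edgeR, DESeq2 and limma-voom made no call among them, nor was an unadjusted p under 0.05 in edgeR. Acly encodes ATP citrate lyase, which releases acetyl-CoA from citrate in the cytosol. It had 631 and 499 CPM in Dox replicates 1 and 2, against 657 and 507 CPM in no Dox replicates 1 and 2. The values fell into pairs by replicate number rather than by Dox, and the log2 fold change was -0.04 (SE 0.19, edgeR adjusted p = 0.986, 95% interval -0.50 to 0.42). The difference between replicate numbers lay toward the 5′ end. In exon 2 Acly had 113 and 69.6 CPM per kb with Dox and 119 and 63.7 CPM per kb without. In exon 28, the last but one, it had 260 and 262 CPM per kb with Dox and 298 in both libraries without. The share of Acly counts in its parts nearer the 3′ end was 59.2% and 65.8% with Dox and 57.0% and 69.2% without.

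Slc44a1 encodes the choline transporter-like protein that carries choline into most cells. Its values were 45.1 and 32.7 CPM in Dox replicates 1 and 2, against 47.7 and 25.7 CPM in no Dox replicates 1 and 2, again higher in replicate 1 of both groups. The log2 fold change was 0.08 (SE 0.31, edgeR adjusted p = 0.984, 95% interval -0.68 to 0.84). Chka encodes choline kinase alpha, which commits choline to phosphatidylcholine. It had 63.0 and 65.6 CPM with Dox, against 66.5 and 74.1 CPM without. These groups did not overlap, as was so in this direction for 19.9% of all genes tested. Its log2 fold change was -0.13 (SE 0.12, edgeR adjusted p = 0.833, 95% interval -0.41 to 0.15). For Slc44a1 and Acly the sign of the estimate turned when single libraries were left out, as it did for Ache and Prima1, and none of these 4 genes was called under any alternative.

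**Figure D3:**
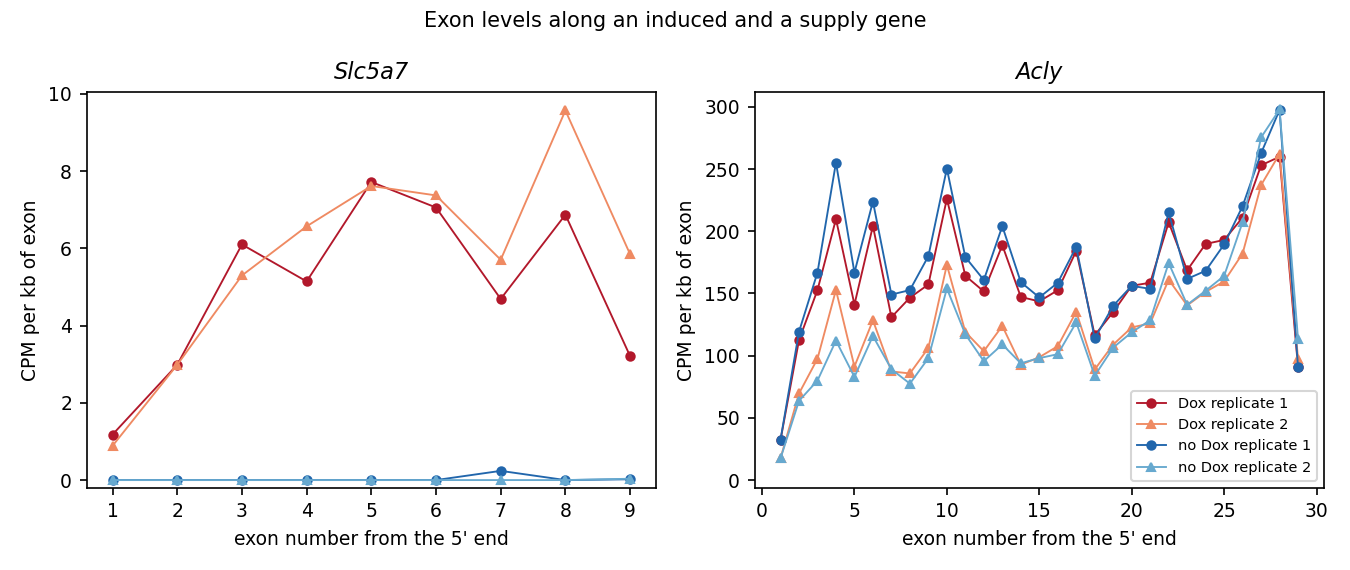
CPM per kb of exon for Slc5a7 and Acly by exon number from the 5′ end, in the 4 libraries. In Slc5a7 both Dox libraries lie above both no Dox libraries at every exon, and in Acly the replicate 1 libraries lie above the replicate 2 libraries toward the 5′ end, as in exon 2 with 113 and 69.6 CPM per kb with Dox.

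Some members have alternative exons that the part counts separate. Acly exon 14 is a cassette of 30 bases present in 1 of the 2 transcripts in its unit (chr11:100503160-100503189, minus strand, GRCm38). It is printed in capitals from the GENCODE M21 transcript between the last 15 bases of exon 13 and the first 15 of exon 15, to show the choice that was measured.
Acly exon 14: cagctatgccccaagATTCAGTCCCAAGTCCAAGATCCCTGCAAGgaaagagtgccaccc
Of the counts in exons 13 to 15, exon 14 held 10.5% and 9.91% in the Dox libraries (exact 95% intervals 9.04% to 12.1% and 8.46% to 11.5%). In the no Dox libraries it held 10.8% and 10.6% (9.10% to 12.7% and 8.32% to 13.2%). All 4 intervals overlap, and since reads crossing the junctions may count in several exons these shares are not inclusion rates. In Slc44a1, part 13 is the end of the shorter of 2 transcripts in the unit. It had 5 and 8 counts with Dox and 2 and 1 without. Part 14, an exon of the longer transcript, had 156 and 154 counts with Dox and 108 and 55 without. The last exon of the longer transcript, 884 bases long, stood at only 0.242 and 0.642 CPM per kb with Dox and 0.291 and 0.554 without. Part 16, the exon before it, had 27.8 and 26.4 CPM per kb with Dox and 24.5 and 19.7 without. Few of the Slc44a1 counts thus fell in the last exon in either group.

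No member was called in edgeR's test of part use, which asks whether the change with Dox differs between parts of a gene. The F test called 0.0346% and the Simes test 0.0173% of 11556 genes. All 8 members that could be tested had an adjusted p of 1 by both tests, and unadjusted p ran from 0.193 (Slc10a4, F test) upward. Slc18a3 has 1 part, and Prima1 had too few parts with counts. For Chat, Slc5a7 and Slc10a4 the no Dox libraries together held only 4, 6 and 10 counts over all parts. The test could therefore hardly find a difference between their parts, and no equal use of parts follows from it. Its error rates on parts that are not independent are not known.

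The contrast between the induced genes and the supply genes was in the change, and less in the level reached. The median log2 fold change was 7.68 for the 4 synthesis and transport genes and -0.04 for the 3 supply genes, a difference of 7.73. Per kb, the median of the synthesis and transport genes was 8.49 and 8.16 CPM in the Dox libraries, against 0.0368 and 0.0893 CPM in the no Dox libraries. That of the supply genes was 24.7 and 25.7 CPM per kb with Dox, against 26.1 and 29.1 CPM per kb without. With 3 genes this median is the value of Chka in each library. The parts and annotated exons of Chka differed in number, so its length is less certain. Acly had 142.5 and 112.7 CPM per kb with Dox. With Dox, Slc10a4 at 21.6 and 18.4 CPM per kb exceeded Slc44a1 at 13.6 and 9.86 CPM per kb in both libraries. Acly stood 22.6 and 19.6 times higher per kb than Chat in those libraries. No test was made of this contrast, since the genes were grouped with results known.

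The wider lists around acetylcholine did not contain a called gene. Of 34 other genes, of choline handling, acetyl-CoA supply and esterase anchoring, 28 were tested and 0 were called by edgeR, with 1 at an unadjusted p under 0.05, beside 1.28% called over all genes tested. Their median log2 fold change was 0.02, and all 28 lay between -0.36 and 0.30. The 95% interval lay within a 2-fold change in either direction for 26 of the 28. Groups did not overlap for 11 of them, 7 higher and 4 lower with Dox. Over all genes tested 18.9% lay wholly above and 19.9% wholly below.

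Among 9 tested genes of choline uptake and release, Pnpla6, a phospholipase that acts on phosphatidylcholine, had 99.9 and 98.8 CPM with Dox and 100.8 and 93.7 CPM without. Slc44a2, a relative of Slc44a1, had 94.9 and 91.9 CPM with Dox and 85.0 and 82.0 CPM without (log2 fold change 0.16, SE 0.11, edgeR adjusted p = 0.726). The 1 gene at an unadjusted p under 0.05 was Flvcr1, a heme and choline transporter, named after its value was seen, with 31.7 and 28.7 CPM with Dox and 39.5 and 38.3 CPM without (log2 fold change -0.36, SE 0.13, edgeR adjusted p = 0.368). Of 5 tested genes of phosphatidylcholine synthesis, Pcyt1a, the rate-limiting enzyme, had a log2 fold change of 0.05 (95% interval -0.23 to 0.33) and Cept1, which completes the lipid, one of 0.00 (-0.31 to 0.32). Chkb, the second choline kinase, shares its unit with Cpt1b and was not analysed here. Of 2 tested genes of choline oxidation, Aldh7a1, an aldehyde dehydrogenase, had 158 and 134 CPM with Dox and 160 and 134 CPM without. Chdh, the choline dehydrogenase, was near the limit of detection, with 11 and 24 counts with Dox and 7 and 12 without.

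All 11 genes listed for acetyl-CoA supply were tested. Cs, citrate synthase, had 230 and 211 CPM with Dox and 243 and 233 CPM without (log2 fold change -0.11, 95% interval -0.39 to 0.17). Dld, a subunit of the pyruvate dehydrogenase complex, had 159 and 151 CPM with Dox and 176 and 164 CPM without (log2 fold change -0.13, 95% interval -0.40 to 0.14). The median over the list, -0.06, lay close to the -0.01 of all genes. Colq, the collagen tail that anchors the esterase at the neuromuscular junction, had 7 and 17 counts with Dox and 4 and 4 without and was too low to be tested. P4hb, a protein disulfide isomerase of the endoplasmic reticulum listed beside it, had 2148 and 2804 CPM with Dox and 2245 and 2664 CPM without.

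**Figure D4:**
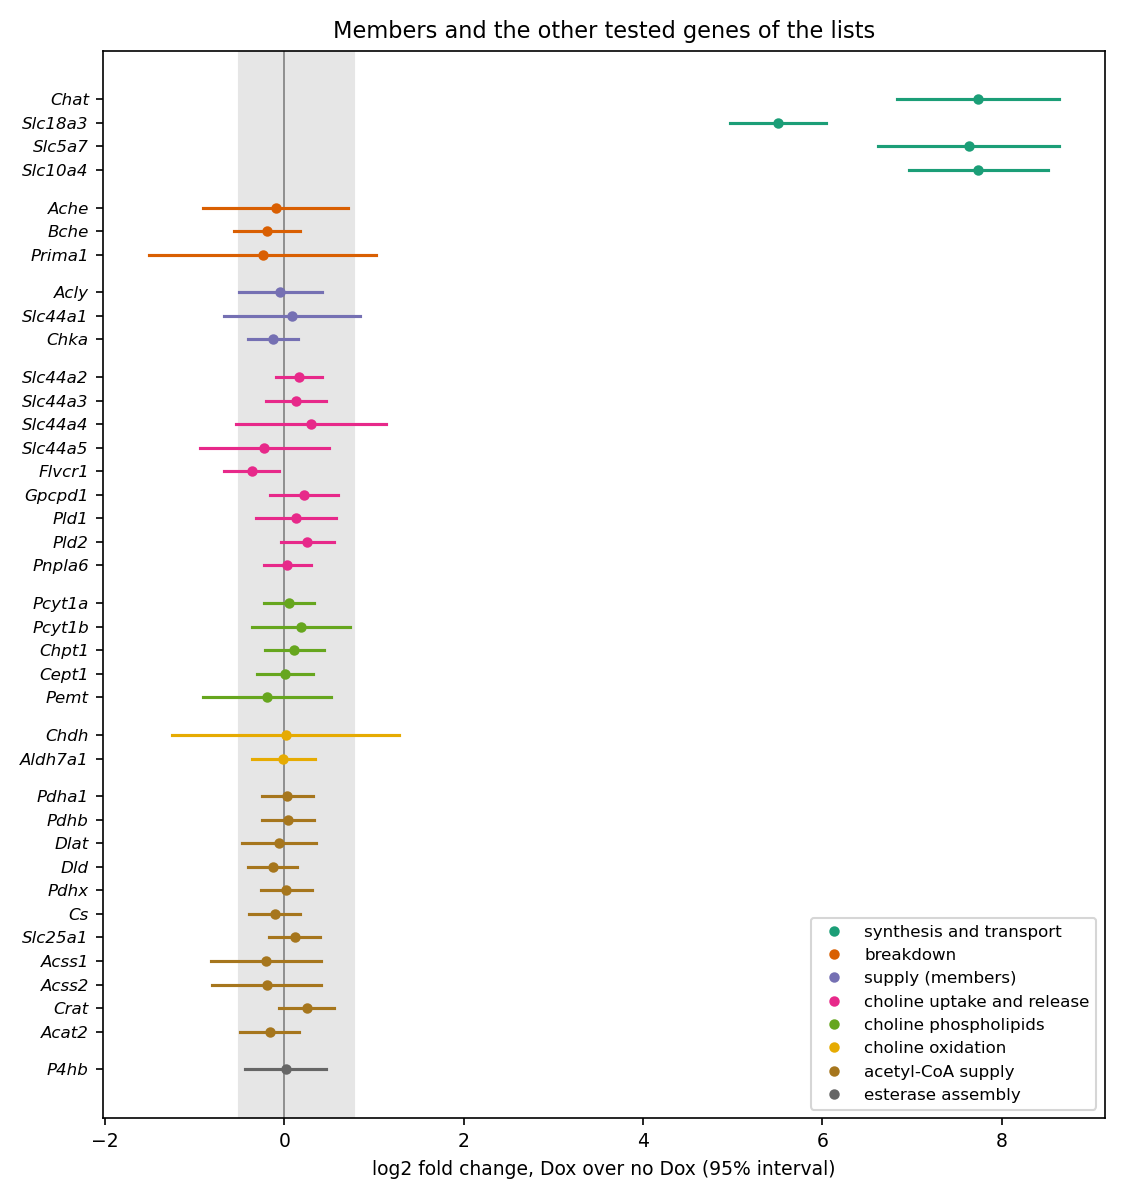
Log2 fold change, Dox over no Dox, with 95% intervals from edgeR's fit, for the 10 members and the 28 other tested genes of choline handling, acetyl-CoA supply and esterase anchoring, coloured by role. The grey band spans the 5th to 95th percentile of all 14283 genes (-0.51 to 0.78); the 4 synthesis and transport genes lie far to its right, at 5.51 to 7.74.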

How the data were processed

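RNA libraries from 2 Dox and 2 no Dox samples were made with the Illumina TruSeq protocol, per the labels' protocols. The submitters' processing notes name TopHat and build mm9. The counting tool, its annotation and strand use were not given in the sources used here. Each sample's deposited table holds whole counts, not normalized, for 208825 numbered parts of genes, and rows that name no gene (14.0% to 16.3% of all counts) were left out. Parts were summed to 21822 gene units, and of 27601 transcript identifiers 97.1% matched a symbol in RefSeq (GRCm38.p6) or GENCODE M21. A symbol held by several units went to the unit with most counts. Parts were matched to GENCODE exons by number and order (for Chka the numbers differed), and exon lengths come from that build, which is later than mm9.

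Differences were computed over all genes in R 4.3.3 by edgeR 4.0.16 (quasi-likelihood F test, robust dispersions, TMM, default low-count filter, Benjamini-Hochberg adjustment, threshold 0.05). SE is the absolute log2 fold change over the square root of F, and may be too small for genes close to absent without Dox. The SE from DESeq2 was larger, at 0.76 for Chat, 0.35 for Slc18a3, 0.65 for Slc5a7 and 0.50 for Slc10a4. Alternatives used DESeq2 1.42.0, limma 3.58.1 (voom), other scalings, no filter, a replicate block, single libraries left out, the largest part as the count, and the 3′-most part left out. The gene test and diffSpliceDGE were tested on simulated data. Intervals on counts cover counting error only. Members, lists and tests were chosen with earlier results of these data known. Named beside the members were Isl1 and Lhx3, the 5 genes most like Chat and, per other list with no call, up to 2 genes with the largest mean CPM. Outside this rule, Flvcr1 and the markers Nefl, Col1a1, Col3a1, Prrx1, Aqp4 and Hba-x were named after their values were seen, Chkb as the listed gene without a unit of its own and Gm42456 for its overlap with Ache.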

Additional observations from a re-analysis of the deposited data

How the results depend on the processing

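Chat, Slc18a3, Slc5a7 and Slc10a4 were called higher, and no member lower, in all 12 alternatives, and no member was called in the part-use test under its 6 alternatives. The units of Chat and Slc18a3 name 1 transcript each. Counting only parts named by the gene alone is therefore the same count and tests nothing. The estimates of 4 uncalled members changed sign: with single libraries left out, the log2 fold change ran from -0.45 to 0.37 for Ache, from -0.795 to 0.71 for Prima1, from -0.22 to 0.16 for Acly and from -0.30 to 0.61 for Slc44a1. With the largest part as the count it was 0.40 for Ache and -0.0805 for Slc44a1, and without the 3′-most part, a choice made after seeing the data, it was 0.31 for Prima1. The difference between the median log2 fold changes of the synthesis and transport genes and the supply genes ran from 6.99 to 8.34 with a library left out and was 7.12 with the largest part.

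Counts over all genes, 175 higher and 8 lower, moved far more: 276 to 283 higher and 22 to 124 lower with a library left out, 295 and 46 with no filter, 398 and 113 in DESeq2, and 81 and 0 without the 3′-most part (edgeR). Lower calls were 16 with library totals, 13 in limma-voom and 14 with the largest part. The fit with the replicate block called 1047 higher and 869 lower. Replicate numbers are not stated to pair the samples; across genes, deviations of replicate 1 from the group mean correlated between the groups at 0.52. The causes of these shifts were not tested. Depth limits the synthesis and transport genes without Dox, at 4 to 29 counts per gene in both libraries together.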
